A study of Rattus norvegicus with 9 samples.

Results

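The genes described here are the 3 TGF-beta ligands (Tgfb1, Tgfb2 and Tgfb3), the 3 TGF-beta receptors (Tgfbr1, Tgfbr2 and Tgfbr3) and the 4 latent TGF-beta binding proteins (Ltbp1, Ltbp2, Ltbp3 and Ltbp4). They were taken by gene symbol, 10 genes of the 17337 in the count table, and all 10 passed the filter on low counts. The measurements are RNA sequencing of cultured cardiac fibroblasts, the connective-tissue cells of the heart. They came from Sprague Dawley rats with no allele or added agent named, either as fetuses on embryonic day 18, as newborns on postnatal day 1, or as adults aged 7 weeks. Each age had 3 libraries, and all cells were primary isolates at passage 0 that had grown to confluency in DMEM with 10% fetal bovine serum and 0.1 mM ascorbic acid, with no sorting step named. The labels do not say whether the 3 libraries of an age came from separate animals or cultures, so p-values measure only the spread between these libraries, which may be technical.

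TGF-beta ligands are secreted in a latent form, each dimer held by its own cleaved propeptide. In most cells that complex is bonded to a latent TGF-beta binding protein that anchors it to fibrillin and fibronectin in the matrix. Integrins, proteases and other activators free the ligand, which binds the type II receptor Tgfbr2. That receptor recruits and phosphorylates the type I receptor Tgfbr1, which in turn phosphorylates SMAD proteins, while Tgfbr3 (betaglycan) presents ligand, above all Tgfb2, to the signalling receptors. In the heart the pathway is known for its part in forming the valves and outflow tract before birth and for driving fibroblasts into contractile, matrix-producing myofibroblasts after injury. Among the binding proteins, Ltbp1 and Ltbp3 carry all 3 latent ligands, Ltbp4 carries latent Tgfb1 weakly and helps assemble elastic fibres, and Ltbp2 binds fibrillin but no latent ligand.

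The promoters of Tgfb1, Tgfbr3 and Ltbp1 are shown as examples of opposite courses with age, Tgfb1 and Tgfbr3 being highest in adult cells and Ltbp1 in fetal cells. The sequences are RefSeq's, on build GRCr8, whose positions cannot be set beside the rn6 positions of the counts. Each runs 5′ to 3′ on the strand of its gene, up to 250 bases before the annotated start of transcription, and is limited to bases that lie outside the annotated gene. The stretches are Tgfb1 at chr1:90324062-90324311 on the plus strand, Tgfbr3 at chr14:2634044-2634293 on the plus strand and Ltbp1 at chr6:26177347-26177551 on the minus strand. Capitals mark matches, on either strand, to any of 7 motifs. These were CAGAC (the core of a SMAD binding element), TGACGTCA (the cyclic AMP response element), TGANTCA (the AP-1 site), GGGCGG (the GC box), TATAAA (the TATA box), CCAAT (the CCAAT box) and CACGTG (an E-box).
Tgfb1: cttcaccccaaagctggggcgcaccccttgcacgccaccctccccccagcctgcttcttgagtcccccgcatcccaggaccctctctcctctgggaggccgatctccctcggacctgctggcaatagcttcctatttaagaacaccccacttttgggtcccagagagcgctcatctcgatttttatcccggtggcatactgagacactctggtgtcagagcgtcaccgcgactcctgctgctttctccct
Tgfbr3: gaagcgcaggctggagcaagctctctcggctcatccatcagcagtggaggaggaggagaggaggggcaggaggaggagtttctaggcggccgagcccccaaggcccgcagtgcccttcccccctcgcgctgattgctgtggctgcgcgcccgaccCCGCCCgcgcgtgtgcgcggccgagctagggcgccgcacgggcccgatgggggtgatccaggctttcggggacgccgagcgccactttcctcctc
Ltbp1: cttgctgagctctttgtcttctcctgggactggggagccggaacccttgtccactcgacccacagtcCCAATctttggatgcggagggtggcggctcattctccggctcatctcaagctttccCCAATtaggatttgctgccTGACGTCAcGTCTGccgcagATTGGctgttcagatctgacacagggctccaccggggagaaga
The Tgfb1 stretch held none of the 7 motifs, and that of Tgfbr3 held a single GC box on the reverse strand, its first base at -95 from the start. The Ltbp1 stretch held the palindromic cyclic AMP response element at -108, followed on the reverse strand by CAGAC at -99, which overlaps no base of it. It also held 3 CCAAT boxes at -183, -127 and, on the reverse strand, -88. The Ltbp1 positions count from the start that ends the 250-base window. That start lies inside the annotated gene, so the 205 printed bases stop short of it. Over the 250-base windows of all 33469 promoters in the table, 1.59% held TGACGTCA, and among the 10 members only Ltbp1 did. CAGAC was in 42.9% of all windows and in 2 of the 10 member windows (Ltbp1 and Ltbp2), GGGCGG in 30.5% and 6, and CCAAT in 34% and 4. The others were CACGTG in 5.59% and 1 (Tgfb2), TGANTCA in 6.34% and 0, and TATAAA in 12.9% and 0. The windows of Tgfb2, Tgfb3, Tgfbr2, Ltbp2 and Ltbp3 lie wholly inside the annotated gene, downstream of another start, and are not printed. These matches describe the letters of the windows; no binding was measured.

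Levels below are counts per 1000000 assigned reads (CPM) after TMM scaling, which evens out differences in library composition. The libraries held 13392825 to 22850491 assigned counts, and the smallest count of any of the 10 genes was 133, for Tgfbr3 in fetal replicate 1. Fetal replicate 3 stood apart from the other fetal libraries. Its summed fibroblast markers were 26495 CPM against 50095 and 53252, sums made up mostly of Col1a1 and Col3a1 (14800 to 32990 and 7294 to 15888 CPM over the fetal libraries). Its summed epithelial markers were 395 CPM against 23.7 and 26.5, and its summed macrophage markers 70.8 CPM against 14.99 and 15.6. Between the ages, each of the 12 macrophage markers had its 3 highest values in the adult libraries. Their sums ran from 14.99 to 70.8 CPM at the fetal age, 166 to 183 at the neonatal and 4182 to 5845 at the adult age. All 12 cardiomyocyte markers with a row had their 3 lowest values in the adult libraries. They summed to 10013 to 14122 CPM at the fetal, 6479 to 7157 at the neonatal and 305 to 320 at the adult age, nearly all of the adult sum being Tnnt2. Mural markers (pericytes and smooth muscle) summed to 647 to 1678, 3149 to 3252 and 1450 to 1663 CPM, and erythroid markers were at or near 0 throughout. The fibroblast markers were present at every age except Col1a2, at 0.0531 to 0.976 CPM in all 9 libraries, where Col1a1 was at 11890 to 40025 CPM. Whether the annotation used for counting captures Col1a2 transcripts was not tested, so its row is not read as their absence. These marker levels move with age alongside the genes below, and their part in each result was not tested; in RNA from whole cultures, fewer cells of a type and less RNA per cell cannot be told apart.

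Among the ligands, Tgfb1 was highest in adult cells, whereas Tgfb2 and Tgfb3 were lower there than in neonatal cells. Tgfb1 (rn6 chromosome 1, 82480875 to 82497196, plus strand, counted over 7 exonic blocks) is the ligand most often studied in fibrosis. It was at 79.9, 71.7 and 84.3 CPM in fetal replicates 1, 2 and 3, at 93.9, 90.9 and 91.7 CPM in the neonatal replicates and at 289.7, 299.8 and 301.5 CPM in the adult ones. The groups do not overlap at any step, and the adult libraries lie far above both younger ages. Tgfb1 rose 3.78-fold from fetal to adult cells (log2 fold change 1.92, SE 0.0701, edgeR adjusted p = 3.25e-08) and 3.22-fold from neonatal to adult cells (1.69, SE 0.0695, edgeR adjusted p = 1.24e-07). The difference between neonatal and fetal cells was small (0.23, SE 0.0683, edgeR adjusted p = 0.0280). It missed the threshold with 5 of the 9 libraries left out in turn (each neonatal library, fetal replicate 1 or fetal replicate 2), and it was 0.05 with no composition scaling (edgeR adjusted p = 0.675). The macrophage marker sum moved in the same direction across the ages, and macrophages also make Tgfb1 transcripts. Their part in the Tgfb1 level was not tested.

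Tgfb2 (rn6 chromosome 13, 105041053 to 105140780, minus strand, 8 exonic blocks) is the ligand that depends most on betaglycan for receptor binding. Its levels were 498.6, 512.3 and 317.7 CPM in the fetal replicates, 382.3, 403.3 and 391.7 CPM in the neonatal ones and 92.2, 156.7 and 163 CPM in the adult ones. Every adult library was below every younger one, while the fetal and neonatal ranges overlapped, as fetal replicate 3 lay under the neonatal libraries and fetal replicates 1 and 2 above them. Tgfb2 fell by 1.69 on the log2 scale from fetal to adult cells (SE 0.238, edgeR adjusted p = 0.000196), a 3.23-fold decrease. It was 2.86-fold lower in adult than in neonatal cells (log2 fold change -1.51, SE 0.237, edgeR adjusted p = 0.000484). Between neonatal and fetal cells the log2 difference was -0.17 (SE 0.230, edgeR adjusted p = 0.580).

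Tgfb3 (rn6 chromosome 6, 109913757 to 109935533, minus strand, 7 exonic blocks) is the ligand tied to palate fusion and to valve development. It was at 1130, 1124 and 464.2 CPM in the fetal replicates, at 1717, 1746 and 1739 CPM in the neonatal ones and at 330.3, 602.7 and 743.2 CPM in the adult ones. The neonatal libraries were above all others and close together, fetal replicate 3 lay within the adult range, and fetal replicates 1 and 2 lay above the adult libraries. Tgfb3 was 3.10-fold lower in adult than in neonatal cells (log2 fold change -1.63, SE 0.370, edgeR adjusted p = 0.00419). Its neonatal level was 1.91-fold the fetal one, which did not pass the test (0.94, SE 0.364, edgeR adjusted p = 0.0739), although DESeq2 called it (adjusted p = 0.0177). The adult minus fetal difference was -0.70 (SE 0.363, edgeR adjusted p = 0.114) with all libraries and -1.02 without fetal replicate 3 (edgeR adjusted p = 0.0272). The summed mural markers were, like Tgfb3, highest in neonatal libraries, with Pdgfrb alone at 1973 to 2044 CPM there. So were the summed fibroblast markers, at 26495 to 53252 CPM in fetal, 70675 to 76919 in neonatal and 26667 to 34608 in adult libraries. That sum is mostly Col1a1 and Col3a1, and single markers took other courses. Of the 10 fibroblast markers, 4 had their 3 highest values in the adult libraries (Pdgfra, Tcf21, Vim and Dcn). Another 2 had their 3 lowest values there (Ddr2 and Lum). The part of either list in the Tgfb3 levels was not tested.

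The receptors moved apart with age, the ligand-binding receptor Tgfbr2 and betaglycan upward and the kinase partner Tgfbr1 slightly downward from its fetal level. Tgfbr2 (rn6 chromosome 8, 124312829 to 124398864, minus strand, 8 exonic blocks) is the type II receptor. It was at 53.7, 53.5 and 58.0 CPM in the fetal replicates, 103.8, 103.4 and 98.2 CPM in the neonatal ones and 222.9, 172.8 and 162.5 CPM in the adult ones. It climbed in steps, with no overlap between any ages, and fetal replicate 3 was close to the other fetal libraries. Tgfbr2 rose 1.85-fold from fetal to neonatal cells (log2 fold change 0.89, SE 0.111, edgeR adjusted p = 0.00047) and 1.83-fold from neonatal to adult cells (0.87, SE 0.110, edgeR adjusted p = 0.000109). The whole rise was 3.38-fold from fetal to adult cells (1.76, SE 0.113, edgeR adjusted p = 9.52e-07).

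Tgfbr1 (rn6 chromosome 5, 63056081 to 63119635, plus strand, 9 exonic blocks) is the type I receptor, also called ALK5. It was at 44.4, 51.6 and 63.5 CPM in the fetal replicates, 35.6, 40.3 and 38.5 CPM in the neonatal ones and 35.3, 40.5 and 41.9 CPM in the adult ones. The fetal libraries were above all others, with fetal replicate 3 the highest, and the neonatal and adult ranges overlapped almost completely. Tgfbr1 fell by 0.48 on the log2 scale from fetal to neonatal cells (SE 0.129, edgeR adjusted p = 0.0188) and by 0.44 from fetal to adult cells (SE 0.130, edgeR adjusted p = 0.0128), a 1.39-fold and a 1.36-fold decrease. The neonatal call was lost without neonatal replicate 1 (edgeR adjusted p = 0.0825) or neonatal replicate 3 (edgeR adjusted p = 0.0655), and without fetal replicate 3 the differences were -0.33 and -0.30, both past the test. Adult and neonatal cells differed by 0.04 (SE 0.131, edgeR adjusted p = 0.807).

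Tgfbr3 (rn6 chromosome 14, 3506416 to 3680508, plus strand, 17 exonic blocks) encodes betaglycan, the co-receptor that has no kinase and can also be shed to bind ligand in solution. It was at 7.18, 8.33 and 13.02 CPM in the fetal replicates, 11.5, 12.4 and 12.3 CPM in the neonatal ones and 72.6, 37.1 and 24.4 CPM in the adult ones. All adult libraries were above all younger ones, but they spread widely, with adult replicate 1 far above the others, and fetal replicate 3 was above the neonatal libraries. Tgfbr3 rose 4.70-fold from fetal to adult cells (log2 fold change 2.23, SE 0.385, edgeR adjusted p = 0.000732), and from neonatal to adult cells it rose 3.69-fold (1.88, SE 0.379, edgeR adjusted p = 0.00221). Without adult replicate 1 the latter log2 difference was 1.35. Neonatal and fetal cells differed by 0.35 (SE 0.388, edgeR adjusted p = 0.509).

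**Figure D1:**
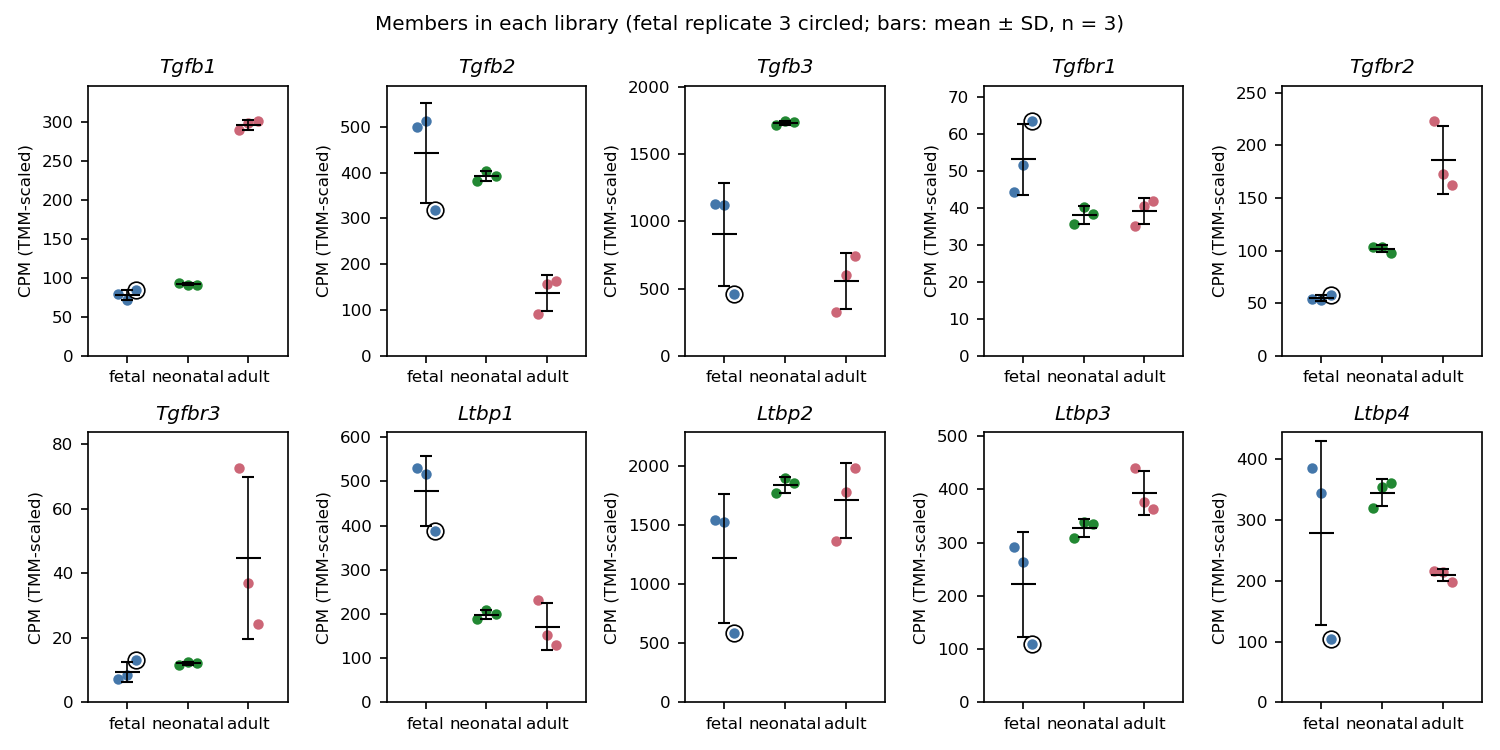
TMM-scaled CPM (linear y axis from 0) of each of the 10 genes by age, 1 point per library, with bars for the mean and SD of 3 libraries and circles around fetal replicate 3. Tgfb1 and Tgfbr3 reach their highest points in adult libraries, Tgfb3 in neonatal ones and Ltbp1 in fetal ones, and the circled library lies far below its group for Tgfb3, Ltbp2, Ltbp3 and Ltbp4.

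Of the latent binders, Ltbp1 was lower after birth and Ltbp3 was above its fetal level in adult cells. Ltbp2 and Ltbp4 did not pass the test in any pair of ages in the fit over all 9 libraries. Ltbp1 (rn6 chromosome 6, 21203502 to 21600442, minus strand, 34 exonic blocks) is the best studied of the 4. It was at 530.9, 517.4 and 388.2 CPM in the fetal replicates, 188.3, 209.1 and 198.9 CPM in the neonatal ones and 231.7, 153.3 and 129 CPM in the adult ones. All fetal libraries, replicate 3 included, were above all later ones, and the adult range enclosed the neonatal one. Ltbp1 fell by 1.27 on the log2 scale from fetal to neonatal cells (SE 0.206, edgeR adjusted p = 0.00201), a 2.41-fold decrease. From fetal to adult cells it fell by 1.48 (SE 0.207, edgeR adjusted p = 0.000179), a 2.79-fold decrease. The adult minus neonatal difference was -0.21 (SE 0.204, edgeR adjusted p = 0.381) with all libraries and -0.49 without adult replicate 1 (edgeR adjusted p = 0.0175).

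Ltbp3 (rn6 chromosome 1, 221099998 to 221116096, plus strand, 27 exonic blocks) is known for roles in bone and tooth. It was at 291.4, 263.4 and 109.8 CPM in the fetal replicates, 309.3, 339.6 and 334.5 CPM in the neonatal ones and 440.8, 377 and 362.7 CPM in the adult ones. The ages stood in order without overlap, and fetal replicate 3 was far below the other fetal libraries. Ltbp3 rose 1.78-fold from fetal to adult cells (log2 fold change 0.83, SE 0.298, edgeR adjusted p = 0.0331), and without fetal replicate 3 that difference was 0.50 (edgeR adjusted p = 0.000296). The adult minus fetal call was lost without adult replicate 1 (edgeR adjusted p = 0.0863), adult replicate 2 (0.0579) or adult replicate 3 (0.05). It was also lost in a fit of only the adult and fetal libraries (edgeR adjusted p = 0.0745) and with no filter on low counts (edgeR adjusted p = 0.0589). Of the 17 alternatives, 11 kept it. The other differences were 0.57 for neonatal minus fetal (SE 0.297, edgeR adjusted p = 0.165) and 0.26 for adult minus neonatal (SE 0.296, edgeR adjusted p = 0.460). Without fetal replicate 3 they were 0.24 (edgeR adjusted p = 0.0423) and 0.26 (edgeR adjusted p = 0.00985). In a fit of only the adult and neonatal libraries, adult minus neonatal was 0.26 (edgeR adjusted p = 0.0132).

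Ltbp4 (rn6 chromosome 1, 84118046 to 84150084, minus strand, 33 exonic blocks) is known for elastic fibre assembly in lung and vessel walls. It was at 386.1, 344 and 105.1 CPM in the fetal replicates, 319.2, 354.9 and 361.3 CPM in the neonatal ones and 216.7, 215 and 197.8 CPM in the adult ones. The neonatal libraries were all above the adult ones, and the fetal libraries straddled both, replicates 1 and 2 near the neonatal level and replicate 3 below the adult one. With all libraries the adult minus fetal difference was -0.41 (SE 0.380, edgeR adjusted p = 0.359) and the adult minus neonatal one -0.72 (SE 0.381, edgeR adjusted p = 0.131). Without fetal replicate 3, Ltbp4 was called lower in adult cells in both comparisons, with log2 differences of -0.80 against fetal cells (edgeR adjusted p = 1.59e-06) and -0.72 against neonatal cells (edgeR adjusted p = 2.06e-06). The second of these compares the same 6 libraries at nearly the same difference, and the fit shares its estimate of spread with the fetal libraries. In a fit of only those 6 libraries the adult minus neonatal difference was -0.72 (edgeR adjusted p = 8.25e-06). The neonatal minus fetal difference was 0.31 (SE 0.379, edgeR adjusted p = 0.549) with all libraries and -0.08 without fetal replicate 3 (edgeR adjusted p = 0.413).

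Ltbp2 (rn6 chromosome 6, 108500114 to 108596446, minus strand, 35 exonic blocks) is the fibrillin-binding member that holds no latent ligand. It was at 1543, 1532 and 588.9 CPM in the fetal replicates, 1771, 1902 and 1856 CPM in the neonatal ones and 1366, 1785 and 1988 CPM in the adult ones. Apart from fetal replicate 3, the libraries of all ages lay in a narrow band, with the adult range spanning the neonatal one. Its log2 differences were 0.59 for neonatal minus fetal (SE 0.320, edgeR adjusted p = 0.174) and 0.49 for adult minus fetal (SE 0.320, edgeR adjusted p = 0.199). The third was -0.11 for adult minus neonatal (SE 0.319, edgeR adjusted p = 0.789). Without fetal replicate 3 the fetal differences were 0.26 (edgeR adjusted p = 0.160) and 0.15 (edgeR adjusted p = 0.330).

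**Figure D2:**
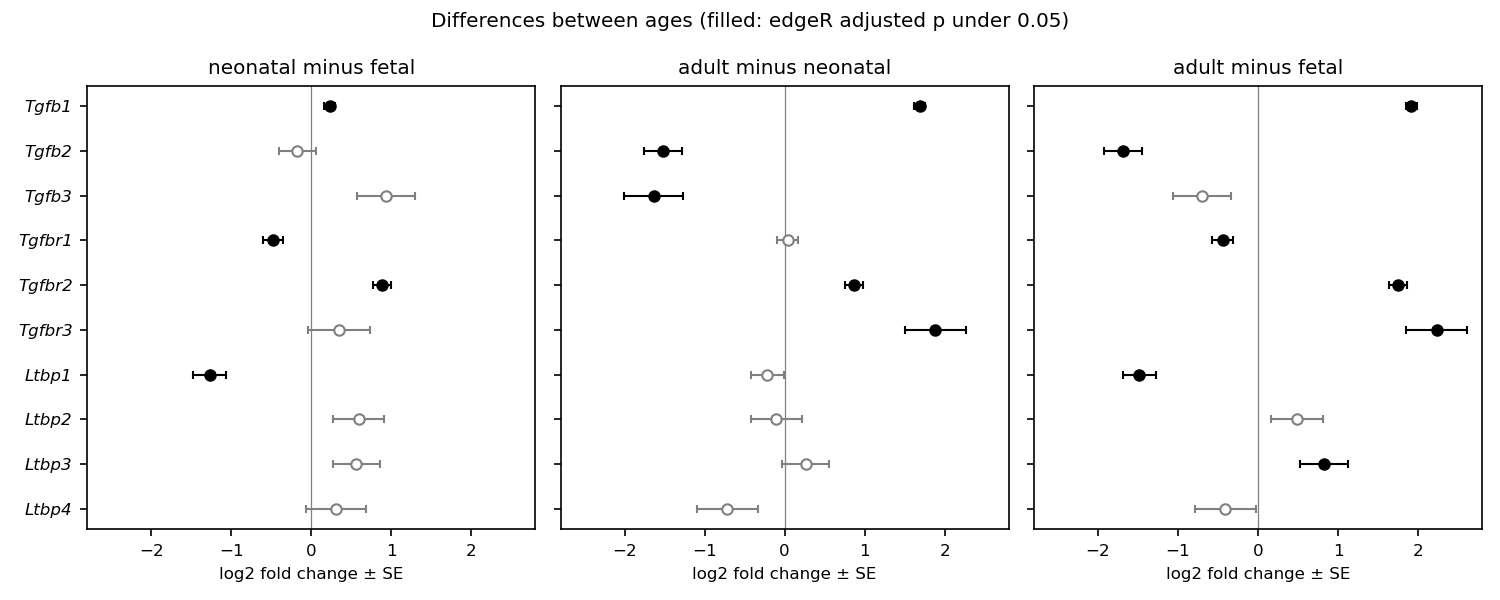
Log2 fold change with its standard error for each of the 10 genes in the 3 pairs of ages, filled where the edgeR adjusted p is under 0.05. Tgfb1 and Tgfbr2 lie to the right in all 3 panels, while Tgfb2 and Ltbp1 lie to the left of 0 in all 3, filled in 2 panels each.

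Across the 10 genes, neonatal against fetal cells gave 4 calls at an adjusted p under 0.05 (Tgfb1 and Tgfbr2 higher, Tgfbr1 and Ltbp1 lower). That comparison called 36.3% of the 11337 genes tested, 18.3% higher and 18.0% lower. Adult against fetal cells gave 7 calls, 4 higher (Tgfb1, Tgfbr2, Tgfbr3 and Ltbp3) and 3 lower (Tgfb2, Tgfbr1 and Ltbp1), with 70.5% of all tested genes called (34.9% higher and 35.5% lower). Adult against neonatal cells gave 5 calls, 3 higher (Tgfb1, Tgfbr2 and Tgfbr3) and 2 lower (Tgfb2 and Tgfb3), with 63.5% of all tested genes called (31.6% higher and 31.8% lower). The members' counts stand close to those shares in the fetal comparisons and below that share in adult against neonatal cells. The 3 comparisons share libraries pairwise and are not independent. In each pair of ages 7 of 10 members had ranges that were fully apart, against 57.4%, 71.8% and 76.1% of all tested genes for neonatal with fetal, adult with fetal and adult with neonatal. The median size of the log2 fold change over the members was 0.522, 1.16 and 0.794 in that order, and over all tested genes it was 0.294, 0.628 and 0.521. The median signed change was 0.33, 0.04 and -0.03 over the members and -0.01 in each pair over all tested genes. Calls with a log2 fold change of at least 1 in size numbered 1, 5 and 4, where 11.2%, 32.4% and 25.0% of all tested genes met that rule. Without fetal replicate 3 the members called numbered 5, 9 and 7, where 40.6%, 74.8% and 72.2% of all genes then tested were called. Without neonatal replicate 1 or neonatal replicate 3 only 2 members were called from fetal to neonatal cells (Tgfbr2 and Ltbp1), where 22.6% and 22.2% of all genes were.

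Levels were divided by the length of annotated exon to set different genes side by side, so rankings between genes rest on those lengths (1457 bases for Tgfb1, 2619 for Tgfb3). On this scale the makeup of the ligands turned over with age. In neonatal cells Tgfb3 made up 76.8% ± 0.120 (SD, n = 3) of the summed ligand CPM per kilobase, Tgfb2 15.9% ± 0.278 and Tgfb1 7.34% ± 0.196. In adult cells Tgfb1 made up 45.1% ± 9.36 and Tgfb3 44.7% ± 8.48, with Tgfb2 at 10.2% ± 1.08. The Tgfb1 share was 55.7%, 41.9% and 37.8% in adult replicates 1, 2 and 3, so it was the leading ligand transcript in replicate 1, and Tgfb3 led in replicates 2 and 3. The Tgfb3 to Tgfb1 ratio of CPM per kilobase was 0.634, 1.12 and 1.37 in these libraries. In fetal cells the shares were 60.6% ± 8.14 for Tgfb3, 28.5% ± 3.07 for Tgfb2 and 10.8% ± 5.11 for Tgfb1, the last at 16.7% in replicate 3 and 8.30% and 7.49% in replicates 1 and 2. The Tgfb3 to Tgfb1 ratio of CPM per kilobase was 6.55 ± 3.05 in fetal, 10.5 ± 0.269 in neonatal and 1.04 ± 0.374 in adult cells (SD, n = 3). Every adult library was below every younger one. The summed ligand level was 554 ± 181, 862 ± 8.31 and 465 ± 97.7 CPM per kilobase (SD, n = 3), and the adult range of 357 to 547.5 overlapped the fetal one.

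Among the receptors, Tgfbr2 led at every age on the same length-scaled measure, with an annotated exon length of 2078 bases against 5707 for Tgfbr1. Before that division Tgfbr1 was above Tgfbr2 in fetal replicate 3 (63.5 against 58.0 CPM). The Tgfbr2 level was 26.5 ± 1.22 CPM per kilobase in fetal, 49.0 ± 1.5 in neonatal and 89.5 ± 15.6 in adult cells (SD, n = 3). In the same order and unit, the levels were 9.32 ± 1.70, 6.69 ± 0.418 and 6.87 ± 0.612 for Tgfbr1 and 2.42 ± 0.786, 3.07 ± 0.130 and 11.4 ± 6.36 for Tgfbr3. The ratio of Tgfbr2 to Tgfbr1 in CPM per kilobase was 2.89 ± 0.410 in fetal, 7.35 ± 0.570 in neonatal and 13.2 ± 3.60 in adult cells (SD, n = 3). The 3 ages did not overlap. Tgfbr3 lay below Tgfbr1 in all fetal and neonatal libraries and above it in adult replicates 1 and 2 but not 3 (18.5, 9.43 and 6.21 against 6.18, 7.09 and 7.35 CPM per kilobase). Before the division Tgfbr3 was above Tgfbr1 in adult replicate 1 (72.6 against 35.3 CPM) but below it in replicate 2 (37.1 against 40.5 CPM). The summed receptor level was 38.3 ± 3.64, 58.7 ± 1.46 and 108 ± 21.3 CPM per kilobase (SD, n = 3), also without overlap.

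Ltbp2 was the largest of the latent binder transcripts at every age on the length scale, at 189 ± 84.9, 286 ± 10.3 and 266 ± 49.1 CPM per kilobase in fetal, neonatal and adult cells (SD, n = 3). Of the 2 binders that carry all latent ligands, Ltbp1 was above Ltbp3 in every fetal library and below it in every later one. The ratio of Ltbp3 to Ltbp1 in CPM per kilobase was 0.635 ± 0.204 in fetal, 2.34 ± 0.0422 in neonatal and 3.40 ± 0.652 in adult cells (SD, n = 3). The Ltbp1 share of the summed latent binders was 22.7% ± 7.43, 6.94% ± 0.114 and 6.61% ± 2.56. Ltbp4 made up 13.8%, 14.6% and 9.67% on average. The order of length-scaled levels within an age was Tgfb3, Ltbp2 and Tgfb2 at the top in both fetal and neonatal cells. Before the division Ltbp2 was above Tgfb3 at both ages, with means of 1221 and 1843 against 906 and 1734 CPM. In adult cells the top was Ltbp2 at 266 ± 49.1, Tgfb3 at 213 ± 80.2 and Tgfb1 at 204 ± 4.39 CPM per kilobase. The range of Tgfb3 overlapped those of the other 2, but within each adult library Ltbp2 lay above both Tgfb3 and Tgfb1. In fetal cells the ranges of Tgfb3, Ltbp2 and Tgfb2 overlapped, with Tgfb3 the highest of them within each library. Ltbp2 was above Tgfb2 in fetal replicates 1 and 2 and below it in replicate 3. The fetal ranges of Ltbp4 (54.0 ± 29.4), Tgfb1 (54.0 ± 4.38) and Ltbp3 (50.5 ± 22.3 CPM per kilobase) also overlapped. In neonatal cells Ltbp4 (66.9 ± 4.40) and Tgfb1 (63.3 ± 1.08) overlapped, and in adult cells Ltbp3 (89.7 ± 9.48) and Tgfbr2 (89.5 ± 15.6 CPM per kilobase) did. Tgfbr1 and Tgfbr3 were the 2 lowest of the 10 at every age.

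**Figure D3:**
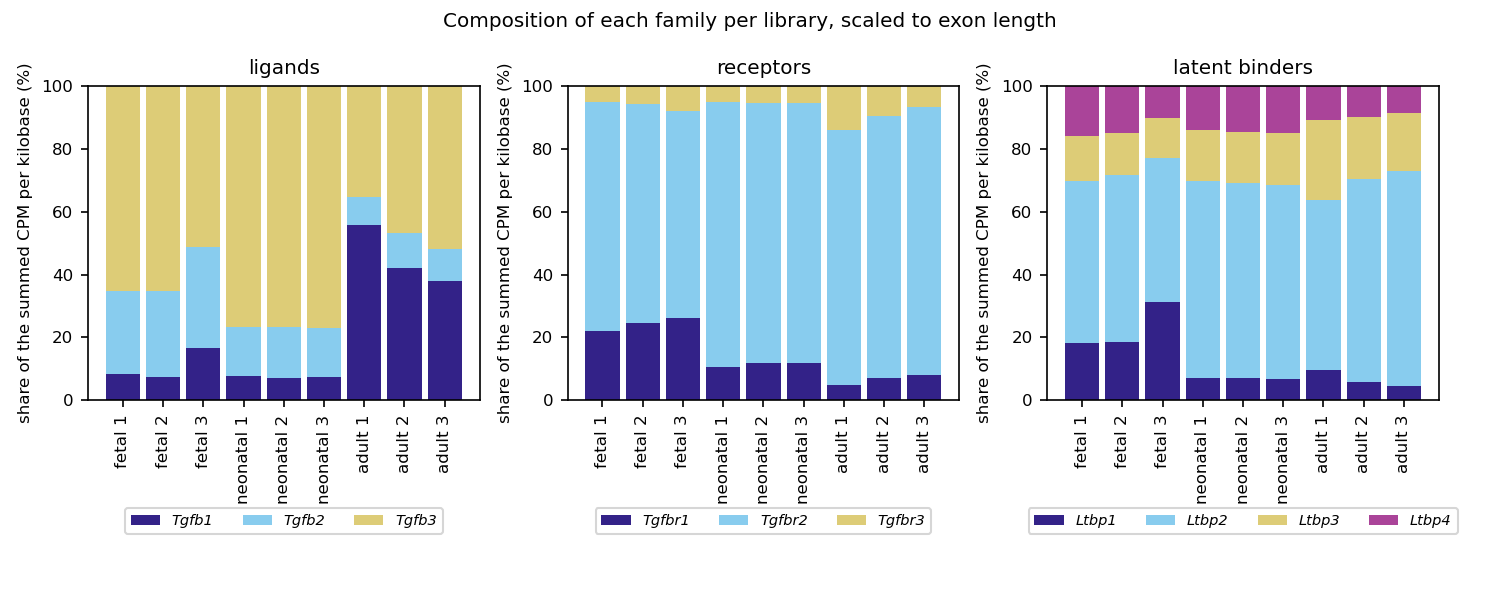
Share (%) of each gene in the summed CPM per kilobase of its family, 1 stacked bar per library, for ligands, receptors and latent binders. The Tgfb1 part of the ligand bars is 7.34% on average in neonatal libraries and 45.1% in adult ones, and the Ltbp1 part of the binder bars is largest in fetal libraries.

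The spread between libraries differed by age. Over the 10 genes the coefficient of variation of CPM had a median of 3.92% in neonatal, 17.9% in adult and 28.5% in fetal libraries. It was smallest in neonatal cells for 9 of 10 genes, Ltbp4 being the exception. Most of the fetal spread came with replicate 3, in which Tgfb3, Ltbp2, Ltbp3 and Ltbp4 stood at 0.412, 0.383, 0.396 and 0.288 of the mean of replicates 1 and 2. A decrease of at least 1 on the log2 scale in that library was found in these 4 of 10 genes and in 3.6% of all tested genes. Tgfb2 and Ltbp1 stood at 0.629 and 0.741 of the same mean, whereas Tgfbr1 stood at 1.32 and Tgfbr3 at 1.68. The lower collagen-led fibroblast sum, the lower mural sum and the higher epithelial sum of the same library were not tested for their part in the result. Adult replicate 1 also stood apart, at a chi-square per degree of freedom of 25.8 and 43 against adult replicates 2 and 3. Between those 2 libraries it was 6.76. Adult replicate 1 was the lowest adult library for Tgfb1, Tgfb2, Tgfb3, Tgfbr1 and Ltbp2 and the highest for the other members.

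**Figure D4:**
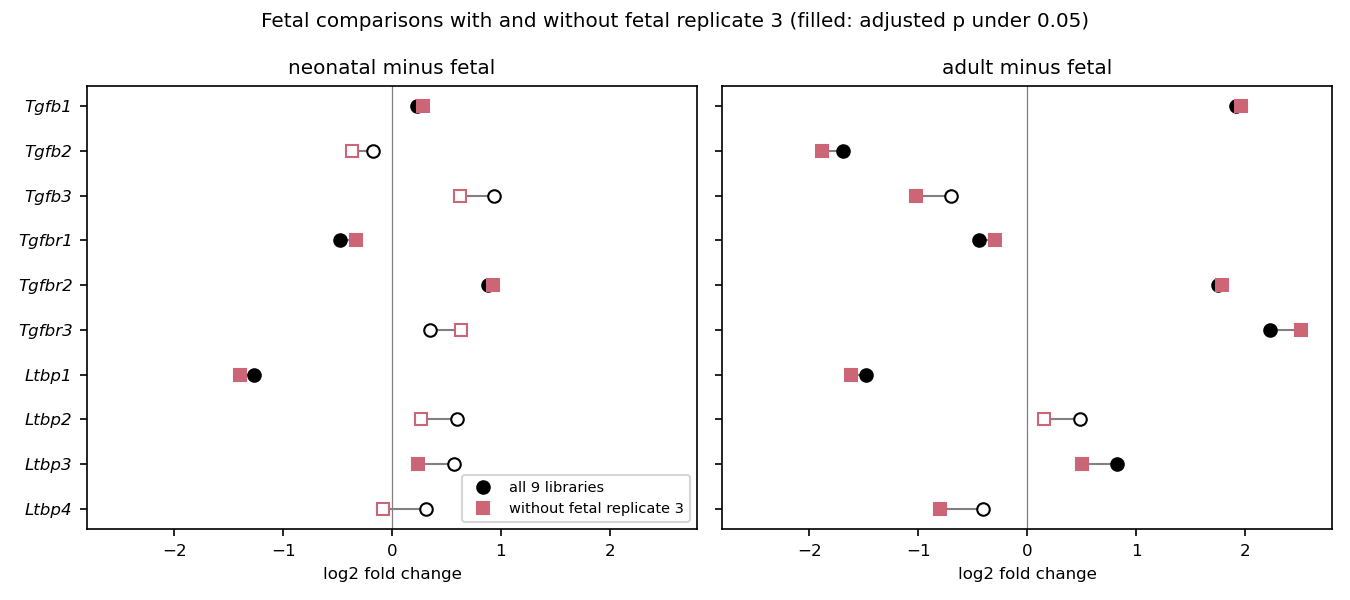
Log2 fold change of each gene against fetal cells with all 9 libraries (circles) and without fetal replicate 3 (squares), filled where the edgeR adjusted p is under 0.05. Tgfb1, Tgfbr2 and Ltbp1 keep their side of 0 and stay filled, Ltbp4 crosses from 0.31 to -0.08 in neonatal minus fetal, and Tgfb3 and Ltbp4 become filled in adult minus fetal.

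The other genes of the pathway were read from a list of 52 genes in 4 roles, of which 49 had a row and were tested. Between neonatal and fetal cells 15 were called higher and 6 lower, between adult and fetal cells 21 higher and 20 lower, and between adult and neonatal cells 17 higher and 22 lower. Of all tested genes, 18.3% were called higher and 18.0% lower in the first pair, 34.9% and 35.5% in the second, and 31.6% and 31.8% in the third. These shares also stand beside the counts by role that follow. The median log2 fold change over the list was 0.29, -0.12 and -0.34 in that order, beside -0.01 over all tested genes in each pair.

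Of 16 genes of latency and activation, 7 were called higher and 3 lower from fetal to neonatal cells, 6 and 7 from fetal to adult cells, and 4 and 8 from neonatal to adult cells. Both membrane anchors of latent TGF-beta rose at each step. Nrros, which tethers latent ligand on macrophages and microglia, was at 0.220 ± 0.0472 CPM in fetal, 2.99 ± 0.582 in neonatal and 116 ± 8.20 CPM in adult cultures (SD, n = 3). It rose by 5.29 on the log2 scale from neonatal to adult cells (SE 0.133, edgeR adjusted p = 7e-09). The macrophage markers took the same order across the ages, and their part in the Nrros level was not tested. Lrrc32, also called GARP, the anchor of regulatory T cells and platelets, went from 45.7 ± 11.6 to 166 ± 6.14 and 245 ± 21.0 CPM. It was called higher at each step (log2 fold change 1.86, edgeR adjusted p = 9.05e-05, then 0.56, edgeR adjusted p = 0.0125).

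The activators had mixed courses. Itgb6, the epithelial integrin subunit that activates latent Tgfb1 and Tgfb3, had means of 12.1 ± 5.13, 2.42 ± 0.392 and 0.347 ± 0.109 CPM and fell at each step (edgeR adjusted p = 0.000663 and 0.00044). Its fetal level was highest, at 18.0 CPM, in replicate 3, the library with the most epithelial markers. Itgb3, the subunit of the vitronectin receptor, was highest in neonatal libraries. It rose from 37.5 ± 5.92 to 125 ± 4.10 CPM (log2 fold change 1.74, edgeR adjusted p = 2.25e-05) and fell to 22.6 ± 2.67 CPM in adult ones (-2.47, edgeR adjusted p = 4.15e-07). Itgb1 followed the same course, at 3713 ± 702, 7208 ± 218 and 3389 ± 237 CPM, and was called in both neonatal comparisons (edgeR adjusted p = 0.00106 against fetal and 0.000118 against adult cells). Itgb5 was called lower in adult cells than in both younger groups, and Itgb8 was not called in any pair.

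Fbn2, the fibrillin of embryonic microfibrils, to which latent binders attach, fell from 171 ± 27.7 CPM to 38.8 ± 0.853 and 4.11 ± 3.57 CPM (log2 fold change -2.14, edgeR adjusted p = 0.00303, then -3.24, edgeR adjusted p = 0.000259). Mmp9, a gelatinase that can cleave the latent complex, was at 0, 0 and 0.584 CPM in the fetal libraries, 0.385 to 0.583 CPM in the neonatal ones and 142, 66.3 and 22.3 CPM in the adult ones. It was called higher in adult cells (edgeR adjusted p = 6.14e-05 against fetal and 0.000121 against neonatal cells). Its adult libraries were all above the younger ones but differed widely among themselves, with replicate 1 highest, as for Tgfbr3.

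Of 6 other surface and matrix binders, 3 were called higher and 0 lower from fetal to neonatal cells, 4 and 1 from fetal to adult cells, and 4 and 1 from neonatal to adult cells. Acvrl1, the type I receptor ALK1 that pairs with Tgfbr2 and with BMP receptors in endothelium, had means of 30.1 ± 5.83, 92.0 ± 1.99 and 293 ± 42.7 CPM. It rose at both steps (log2 fold change 1.61, edgeR adjusted p = 9.1e-05, then 1.67, edgeR adjusted p = 1.04e-05). Eng, the co-receptor endoglin, related in structure to betaglycan, rose from 195 ± 53.9 to 514 ± 14.7 and 1007 ± 71.4 CPM (log2 fold change 1.40, edgeR adjusted p = 0.000586, then 0.97, edgeR adjusted p = 0.00115). Both stood in the order of Tgfbr2 across the ages, while the endothelial marker sums were 17.2 to 20.7 CPM at the fetal, 23.6 to 28.9 at the neonatal and 92.3 to 108 at the adult age. Of the 8 endothelial markers, 4 had their 3 highest values in the adult libraries. Most of the adult sum was Tie1, at 68.6 to 72.5 CPM against at most 2.14 in the younger libraries, while Kdr was at 0.650 to 1.38 CPM in adult and 2.38 to 5.90 in younger ones. The part of endothelial cells in these levels was not tested.

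Among the small proteoglycans that bind TGF-beta in the matrix, Bgn (biglycan) rose from fetal to neonatal cells (log2 fold change 1.21, edgeR adjusted p = 0.00315). Dcn (decorin) was at 58.2 ± 0.764 CPM in neonatal cells and rose to 353 ± 121 CPM in adults (2.60, edgeR adjusted p = 0.000813). Fmod (fibromodulin) was called higher in adult than in neonatal cells, at 98.8, 27.6 and 17.3 CPM against 13.1 to 14.5 CPM, with the adult level resting largely on replicate 1. The gene called lower in both adult comparisons was Bambi, a pseudoreceptor without a kinase, named here after its values were seen, at 29.6 ± 3.23, 31.0 ± 1.69 and 10.5 ± 1.71 CPM.

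Of 13 genes of intracellular signalling, 4 were called higher and 1 lower from fetal to neonatal cells, 8 and 5 from fetal to adult cells, and 6 and 5 from neonatal to adult cells. Smad7, the inhibitory SMAD that targets the type I receptor, rose from 84.0 ± 21.8 CPM in the fetal to 138 ± 0.536 CPM in the neonatal libraries (log2 fold change 0.72, edgeR adjusted p = 0.0176). It was at 162 ± 29.1 CPM in adult cells. Smad6, the inhibitory SMAD of BMP signalling, was at 17.6 ± 5.09 CPM in fetal cells and rose to 52.2 ± 21.8 CPM in adults (1.57, edgeR adjusted p = 0.00125). Smurf2, a ubiquitin ligase that acts with Smad7 on the receptor, was at 315 ± 4.66 CPM in neonatal cells and fell to 166 ± 16.9 CPM in adults (-0.92, edgeR adjusted p = 2.07e-05). Tgfbrap1 and Tgif1 were also called higher in neonatal than in fetal cells, by 0.54 and 0.53, and Map3k7, called higher in adult cells, did not exceed 1.87 CPM in any library.

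Of 14 genes commonly used as readouts of TGF-beta, 1 was called higher and 2 lower from fetal to neonatal cells, 3 and 7 from fetal to adult cells, and 3 and 8 from neonatal to adult cells. Igfbp3, a secreted binder of insulin-like growth factors, was at 97.3 ± 2.64 CPM in neonatal cells and rose to 1764 ± 804 CPM in adults (log2 fold change 4.18, edgeR adjusted p = 0.000272). Junb, an AP-1 subunit, rose from 147 ± 18.2 to 932 ± 442 CPM (2.66, edgeR adjusted p = 8.31e-05). Adult replicate 1 was the highest library for both. Nox4, an oxidase of myofibroblasts, fell by 2.83 on the log2 scale from neonatal to adult cells (edgeR adjusted p = 4.29e-06). Cnn1, a calponin of contractile cells, fell by 3.20 from fetal to adult cells (edgeR adjusted p = 5.58e-05). Cdkn2b, a cell cycle inhibitor, and Lox, the collagen cross-linking oxidase, were called lower at each step (edgeR adjusted p = 4.34e-05 and 0.000521 from fetal to neonatal cells). Tgfbi fell by 3.43 from fetal to adult cells, but its fetal level was 30.7, 31.6 and 222 CPM, so the mean rests on replicate 3.

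**Figure D5:**
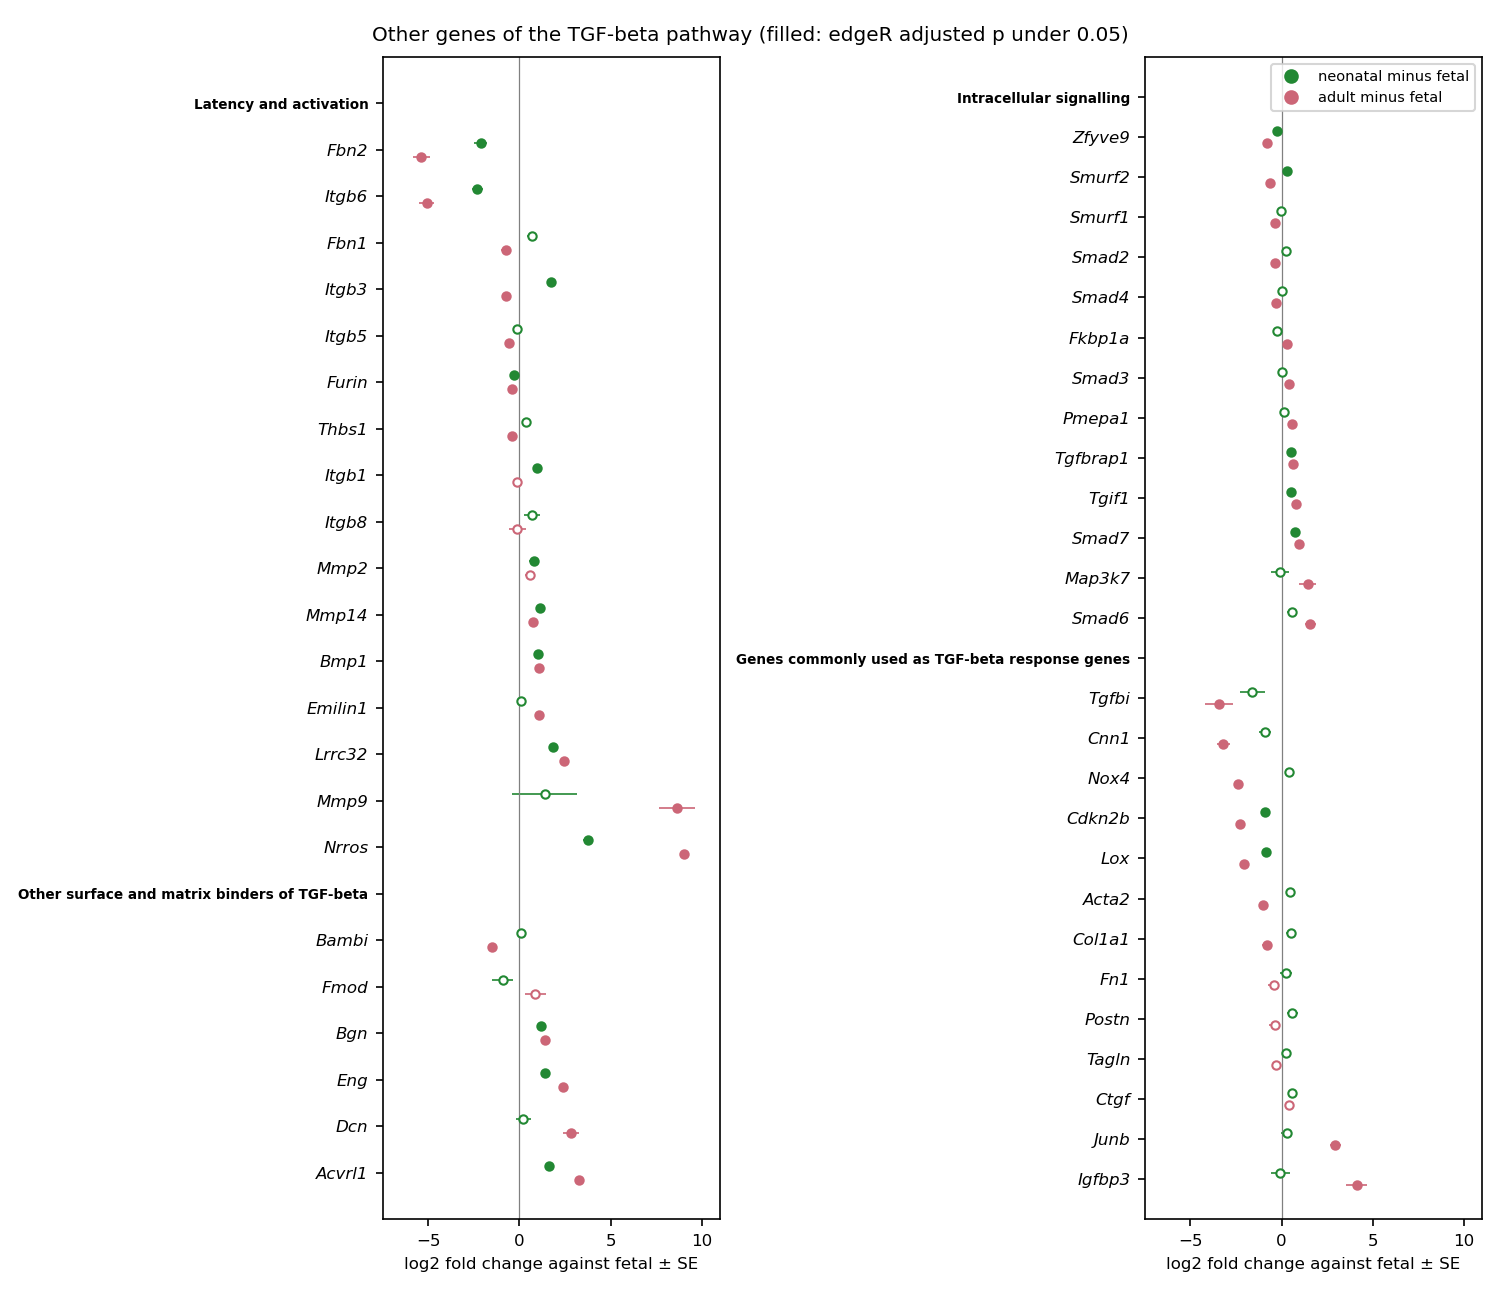
Log2 fold change with its standard error against fetal cells, for neonatal and for adult cells, of the other pathway genes except 1 that is not reported, grouped by role and filled where the edgeR adjusted p is under 0.05. Nrros and Mmp9, near 0 CPM in fetal libraries, lie farthest to the right for adult cells, Fbn2 and Itgb6 lie farthest to the left, and the response genes fall on both sides of 0.

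The genes most like each member were found by the root mean square difference of mean-centred log2 CPM over the 9 libraries, among 8323 genes with a mean of at least 10 CPM. For Tgfb1 these were Commd4 (difference 0.0531) and Rilpl2 (0.0858), and for Tgfb3 they were Myh11 (0.0678), the smooth muscle myosin heavy chain on the mural marker list, and Dysf (0.173). Myh11 averaged 253, 517 and 165 CPM at the fetal, neonatal and adult ages, and ranged from 140 to 316 CPM among the fetal ones. Tgfbr2 was nearest to Dtx4 (0.0791) and Optn (0.0872), and Tgfbr1 to Chaf1b (0.0838) and Rae1 (0.0853). Less close were the neighbours of Tgfbr3, which were Zfp36l1 (0.241) and Pdgfra (0.267), of Tgfb2, which were St6gal1 (0.149) and Ankrd52 (0.168), and of Ltbp1, which were F11r (0.211) and Enc1 (0.217). The remaining pairs were Tssc4 (0.127) and Cyp1b1 (0.143) for Ltbp2, Car11 (0.0939) and Ece1 (0.111) for Ltbp3, and Klf9 and Fn1 (both 0.173) for Ltbp4. These distances describe 9 libraries of 3 ages, in which genes share the same age differences and the same departure of fetal replicate 3.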

How the data were processed

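Raw read counts per gene for 9 libraries, with exon positions and lengths, were deposited by the authors. Per the file headers they were counted with featureCounts 1.6.3 against an rn6 annotation, with no strand option named. FastQC, Trimmomatic 0.39, STAR 2.5.2b, Subread 1.6.3 and DESeq2 are listed per the submitters' processing notes. The authors also deposited a normalized table whose values are a signal, the count divided by a size factor. In it, 100% of the values in 12786 genes equalled that quotient within 0.001%, and it was used for this check only. Libraries held 13392825 to 22850491 assigned counts.

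Counts were analysed with edgeR 4.0.16 in R 4.3.3. Low counts were removed by filterByExpr (11337 genes kept), libraries were TMM-scaled. Robust quasi-likelihood tests were run in 1 fit of age over all 9 libraries, with Benjamini-Hochberg adjustment over all genes and a threshold of 0.05. Descriptions used Python 3.11.15. CPM per kilobase is the TMM-scaled CPM divided by annotated exon length. The procedure was also run on simulated data in which few genes changed, and only in adult libraries. Those data held no outlying library like fetal replicate 3, so they do not show how the tests behave with one. Libraries of 1 age differed by a chi-square of 2.05 to 97.3 per degree of freedom, above counting error, so each was kept as a replicate. Same-numbered libraries of different ages deviated from their group means with correlations of -0.0649 to 0.0521, so the numbers were not used as pairs.

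The members, the pathway list and the marker lists were chosen with earlier results of these data known. All members are named. From each role of the pathway list the text names up to 3 called genes with the largest change per pair of ages, and genes whose role bears on a member (integrins, membrane anchors). The 2 most similar genes per member were taken by root mean square difference. Alternatives were DESeq2 1.42.0, other scalings, no filter, only the 2 ages compared, non-robust shrinkage, a replicate block, a test against a log2 fold change of 0.5, and each library left out. Itgav, Ski and Skil of the pathway list had no row, and 1 gene of it is counted but not reported here. Promoter sequences come from RefSeq (GRCr8), matched by symbol for 10 of 10 members, and counts cover exons only.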

Additional observations from a re-analysis of the deposited data

How the results depend on the processing

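Of 510 member differences recomputed under 17 alternatives per pair of ages, 479 kept their direction and their side of the threshold, 17 lost the call, 10 gained one and 4 changed sign. The sign changes were in uncalled differences. Over the fits without 1 library, Ltbp4 neonatal minus fetal ran from -0.0798 (without fetal replicate 3) to 0.615. Tgfbr1 adult minus neonatal ran from -0.0159 (without neonatal replicate 1), past -0.0121 (without adult replicate 3), to 0.109. Ltbp2 adult minus neonatal ran from -0.228 to 0.0324 (without adult replicate 1). The cause was not tested. A test against a log2 fold change of 0.5, which asks for a larger change by construction, called 2 members from fetal to neonatal cells in place of 4. It called 13, 27 and 22 pathway genes in place of 21, 41 and 39 (neonatal minus fetal, adult minus fetal, adult minus neonatal). Of all genes it called 9.85%, 42.6% and 33.2% in place of 36.3%, 70.5% and 63.5% in that order. With each library left out in turn, the members called ranged from 2 to 5, 6 to 9 and 5 to 7 in that order, beside 21.5% to 40.6%, 65% to 74.8% and 53.8% to 72.2% of all genes. The pathway genes called ranged from 16 to 26, 36 to 42 and 34 to 40. With the replicate block, 4, 7 and 5 members and 21, 40 and 38 pathway genes were called, and the libraries share only a number. Fits of only the 2 ages compared called 4, 6 and 7 members, beside 35.8%, 63.6% and 71.5% of all genes. Scaling by library size alone moved the median log2 fold change of all genes to -0.18 from fetal to neonatal cells and -0.12 from fetal to adult cells, and 29% in place of 50.4% of the genes called in neonatal minus fetal were then higher. Of the shares of the 10 genes at the 3 ages, 24 moved by more than 1 SD when not divided by exon length. Most shares thus depended on that division. The adult Tgfb1 share of the ligands was 31.3% in place of 45.1%, and the fetal Tgfbr2 share of the receptors 47.1% in place of 69.5%. Without the division Tgfb3 was above Tgfb1 in adult replicate 1 as well (330.3 against 289.7 CPM). The SE did not follow the depth. That of Tgfbr3, the member with the smallest counts, was 0.385 for adult minus fetal, and the SE of Tgfb3, with far larger counts, was 0.363.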
